A study of Mus musculus with 12 samples.

Results

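Keratin, cornified envelope and epithelial genes were followed here through 10 members among 55487 genes of the count table: the type II keratins Krt4, Krt7 and Krt8, the type I keratins Krt18, Krt19 and Krt20, the cornified envelope genes Sprr2h and Crct1, the tight junction gene Cldn3 and the adhesion gene Epcam. The members were chosen by name with their measured levels and medium changes in these libraries known, so those values are given as a description. RNA sequencing covered 12 mouse libraries in 4 groups of 3. Hepa1, a mouse hepatoma line labelled wild type, was cultured in ferroptotic or in control medium, and Bach1-/- mouse embryonic fibroblasts (MEFs), taken as primary cells, were cultured in the same 2 media. Ferroptotic medium had been conditioned for 48 h by immortalised MEFs that re-expressed Bach1, and control medium by control immortalised MEFs. Recipient cells spent 4 days in it, and both media carried vitamin E (0.4 mg/mL) and 2-mercaptoethanol (0.1 mM). All MEF recipients lacked Bach1 by label, so no group shows MEFs with the gene, and Hepa1 is a single tumour line. Libraries held 18.58 M to 23.4 M reads on genes.

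Keratins form the intermediate filaments of epithelial cells. Each filament is built from a type I and a type II keratin, and KRT8 with KRT18 is the pair of simple epithelia such as liver. The cornified envelope is the cross-linked protein shell of stratified epithelia such as epidermis, and many of its genes, among them the small proline-rich (SPRR) family, lie together in the epidermal differentiation complex. Claudins seal tight junctions between epithelial cells, and EPCAM is a surface adhesion molecule of many epithelia.

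The members fall into known gene clusters. On GRCm38, Krt7 (chromosome 15, 101411043 to 101430313), Krt4 (101918535 to 101924735), Krt8 (101996698 to 102004482) and Krt18 (102028180 to 102032027) span 621.0 kb, and 23.7 kb separate the divergently transcribed Krt8 and Krt18. Krt20 (99428403 to 99438150) and Krt19 (100140810 to 100148665) are on chromosome 11, 702.7 kb apart. Sprr2h (92385685 to 92387324) and Crct1 (93014205 to 93015687) are on chromosome 3, 626.9 kb apart in the epidermal differentiation complex. Cldn3 is on chromosome 5 (134986214 to 134987472) and Epcam on chromosome 17 (87635979 to 87651129). Krt7, Krt8 and Cldn3 each overlap an antisense gene in position (Gm671, Gm36026 and Wbscr25), and reads of such pairs cannot be told apart without the strand setting.

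Promoters from RefSeq (GRCm38.p6) were found for 7 of the 10 members, each covering 250 bases before and 50 after the annotated start. Shown are Sprr2h, the member with the largest decrease in Hepa1, Krt7, which was lower, and Krt8 and Krt20, which were higher in ferroptotic medium. They are printed 5′ to 3′ on the gene's strand, and for Krt7 and Krt8 the RefSeq start lies inside the GENCODE gene. Capitals mark matches on either strand to the TATA box letters TATAAA, to the AP-1 letters TGANTCA or to the GC box letters GGGCGG. The regions are chr3:92385435-92385734 (plus strand) for Sprr2h, chr15:101412153-101412452 (plus) for Krt7, chr15:102004293-102004592 (minus) for Krt8 and chr11:99438104-99438403 (minus) for Krt20.
Sprr2h: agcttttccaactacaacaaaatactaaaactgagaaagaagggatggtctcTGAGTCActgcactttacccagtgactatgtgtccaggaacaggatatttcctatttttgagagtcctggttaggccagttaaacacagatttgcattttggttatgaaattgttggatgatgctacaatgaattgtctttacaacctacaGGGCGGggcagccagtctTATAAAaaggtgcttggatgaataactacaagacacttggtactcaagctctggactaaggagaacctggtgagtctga
Krt7: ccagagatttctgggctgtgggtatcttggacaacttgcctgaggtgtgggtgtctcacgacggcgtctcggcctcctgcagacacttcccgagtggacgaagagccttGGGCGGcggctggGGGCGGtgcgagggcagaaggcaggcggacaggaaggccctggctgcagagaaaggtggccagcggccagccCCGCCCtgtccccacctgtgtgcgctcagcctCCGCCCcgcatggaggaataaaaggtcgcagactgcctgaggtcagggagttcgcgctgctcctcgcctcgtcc
Krt8: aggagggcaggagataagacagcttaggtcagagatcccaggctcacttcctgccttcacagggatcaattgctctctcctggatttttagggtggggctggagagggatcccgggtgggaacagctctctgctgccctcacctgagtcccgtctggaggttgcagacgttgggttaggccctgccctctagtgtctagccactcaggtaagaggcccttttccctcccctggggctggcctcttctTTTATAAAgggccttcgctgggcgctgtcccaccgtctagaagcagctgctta
Krt20: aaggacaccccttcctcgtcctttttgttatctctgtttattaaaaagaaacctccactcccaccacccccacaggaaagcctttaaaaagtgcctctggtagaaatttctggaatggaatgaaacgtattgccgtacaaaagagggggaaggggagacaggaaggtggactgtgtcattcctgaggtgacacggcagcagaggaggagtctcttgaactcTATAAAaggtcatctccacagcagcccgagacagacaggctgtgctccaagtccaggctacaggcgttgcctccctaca
Sprr2h held a TATA box 29 bases, a GC box 47 bases and an AP-1 match 198 bases before its start. Krt20 also held a TATA box 29 bases before its start, while in Krt8 the TATA box letters began 1 base before the annotated start and overlapped a match on the other strand. Krt7 held 4 GC boxes and no TATAAA. Over 32851 RefSeq promoters of the same length, 13.6% held TATAAA, 7.81% held TGANTCA and 35.7% held GGGCGG. A match describes letters in the window and shows no binding.

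In Hepa1, Krt18 had the highest level of the members in both media, and Krt8, Krt7, Cldn3 and Krt20 were also abundant in CPM, which scales reads to the library's total on genes. Per kb of merged exon length, where genes can be compared with each other, Krt18 stood at 1208 ± 23.7 CPM per kb in ferroptotic and 1325 ± 29.9 in control medium (SD, n = 3). Krt8 stood at 232 ± 8.54 and 194 ± 6.62 CPM per kb in ferroptotic and control medium, and Cldn3 at 156 ± 1.98 and 268 ± 19.1. Krt20 (55.5 ± 1.33 and 43.9 ± 1.84) and Krt7 (43.0 ± 0.55 and 60.8 ± 3.11) came next. The level of Krt7 depends on its length, and with the principal transcript of 4094 bases in place of 7049 merged bases it was 74.1 ± 0.95 and 105 ± 5.35 CPM per kb. That length, chosen after the data were seen, places Krt7 above Krt20. Krt4, Sprr2h, Crct1 and Krt19 were at or below 3.18 CPM per kb in both media. Epcam had 0 reads in all 6 Hepa1 libraries, which allows up to 0.0511 CPM in ferroptotic and 0.0508 CPM in control medium (3 counts over a group).

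**Figure D1:**
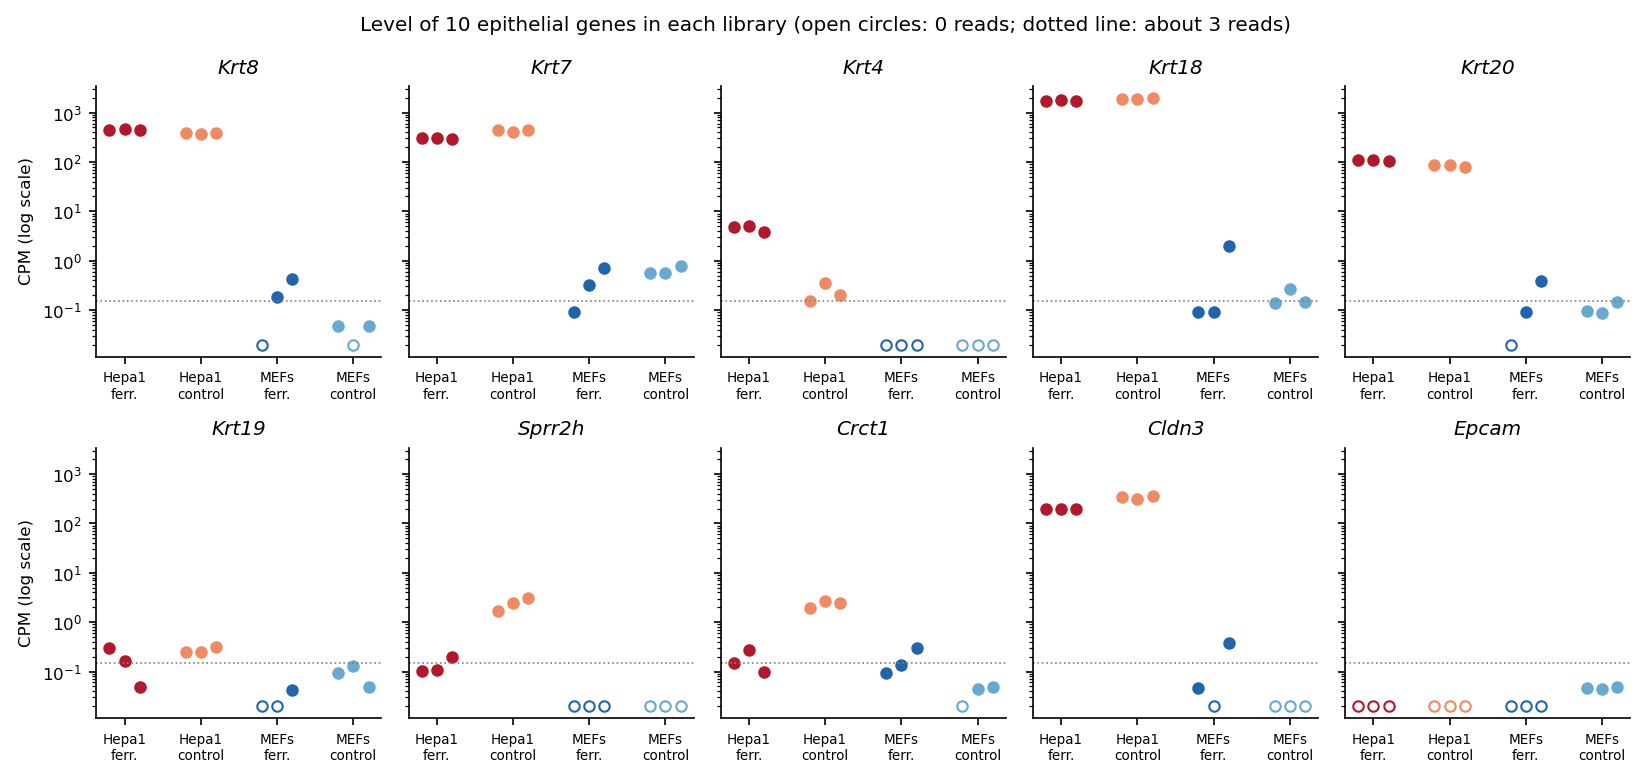
Level of each member in CPM on a log axis, 1 point per library, in Hepa1 and MEF groups of 3 libraries. Krt18, Krt8, Krt7, Cldn3 and Krt20 lie above 80 CPM in every Hepa1 library and at or below 2.01 CPM in every MEF library. Open circles at the bottom mark libraries with 0 reads, and the dotted line marks about 3 reads.

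The members did not all differ one way between media in Hepa1. Of the 10 members, 8 passed the filter on low counts and all 8 were called in the genome-wide edgeR quasi-likelihood fit, 3 higher and 5 lower in ferroptotic medium. The groups of all 8 did not overlap. The background is 58.1% of 13169 genes called, 29.3% higher and 28.8% lower, and 63.2% whose groups do not overlap. The members were chosen with this contrast known, so nothing is read from their count. Krt19 and Epcam were not tested. The median log2 change of the 8 tested members was -0.36, against 0.00446 over all genes tested.

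Type II keratins differed among themselves. Krt8, the main type II keratin of hepatocytes, had 453, 472 and 439 CPM in ferroptotic medium, against 386, 365 and 390 CPM in control medium. Every ferroptotic library lay above every control library, with a log2 change of 0.21 (SE 0.0352). Krt7, a type II keratin of bile duct and other glandular epithelia, had 306, 305 and 299 CPM in ferroptotic medium, against 437, 404 and 445 CPM in control medium. Here all ferroptotic libraries were the lower ones, with a log2 change of -0.54 (SE 0.0363). The reads of Krt8 relative to those of Krt7 were 1.48, 1.55 and 1.47 in ferroptotic libraries, against 0.883, 0.905 and 0.875 in control libraries. These are reads not scaled to length, and Krt7 is the longer gene. Per kb of merged exon length Krt8 stood above Krt7 in both media, at 232 against 43.0 CPM per kb in ferroptotic and 194 against 60.8 in control medium.

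Krt4, the type II keratin of non-cornified stratified epithelia such as oesophagus, had 94, 92 and 78 reads in ferroptotic medium, against 3, 7 and 4 reads in control medium. All 3 ferroptotic libraries were far above the control ones, at a mean of 4.52 ± 0.60 CPM in ferroptotic against 0.24 ± 0.10 CPM in control medium (SD, n = 3). The log2 change was 4.17 (SE 0.275), rank 8 from the top among 13169 genes. The ratio of pooled reads was 19.0 with a 95% counting interval of 11.1 to 35.2. Even so Krt4 reached only 2.12 ± 0.28 CPM per kb in ferroptotic medium, against 232 ± 8.54 CPM per kb for Krt8 there.

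Among the type I keratins, Krt18, the partner of Krt8, had 1739, 1769 and 1701 CPM in ferroptotic medium, against 1867, 1893 and 1951 CPM in control medium. The groups did not overlap and the log2 change was -0.18 (SE 0.0306). Krt20, a type I keratin best known from gut and urothelium, had 108, 109 and 104 CPM in ferroptotic medium, against 87.2, 85.9 and 80.5 CPM in control medium. All ferroptotic libraries were higher, with a log2 change of 0.29 (SE 0.0412). Krt19, a keratin of bile duct and other simple epithelia, had 6, 3 and 1 reads in ferroptotic and 5, 5 and 6 reads in control medium. The groups overlapped, and the ratio of pooled reads was 0.629 with a 95% counting interval of 0.255 to 1.48.

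Type I and type II keratin mRNA were unequal in Hepa1 in both media. Summed over all listed keratins, type I stood at 1265 ± 25.1 CPM per kb in ferroptotic and 1370 ± 28.0 in control medium, while type II stood at 281 ± 9.33 and 262 ± 9.57 (SD, n = 3). Type I over type II was 4.51 ± 0.0625 in ferroptotic and 5.22 ± 0.187 in control medium. For Krt18 over Krt8 the ratio was 5.21 ± 0.0912 in ferroptotic and 6.83 ± 0.232 in control medium. With principal transcript lengths, Krt18 and Krt20 over Krt8 and Krt7 gave 4.13 ± 0.0444 in ferroptotic and 4.58 ± 0.177 in control medium. Krt7, Krt8, Krt18 and Krt20 made up 98.9 to 99.0% of keratin reads in ferroptotic and 98.2 to 98.3% in control libraries. Keratin reads were 0.263 ± 0.0055% of the library in ferroptotic and 0.285 ± 0.0057% in control medium. The HTSeq summary lines hold 0 reads set aside as mapping to several places, so the counts do not show how such reads were handled. GENCODE names a processed pseudogene of Krt8, so these ratios are uncertain to that extent.

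**Figure D2:**
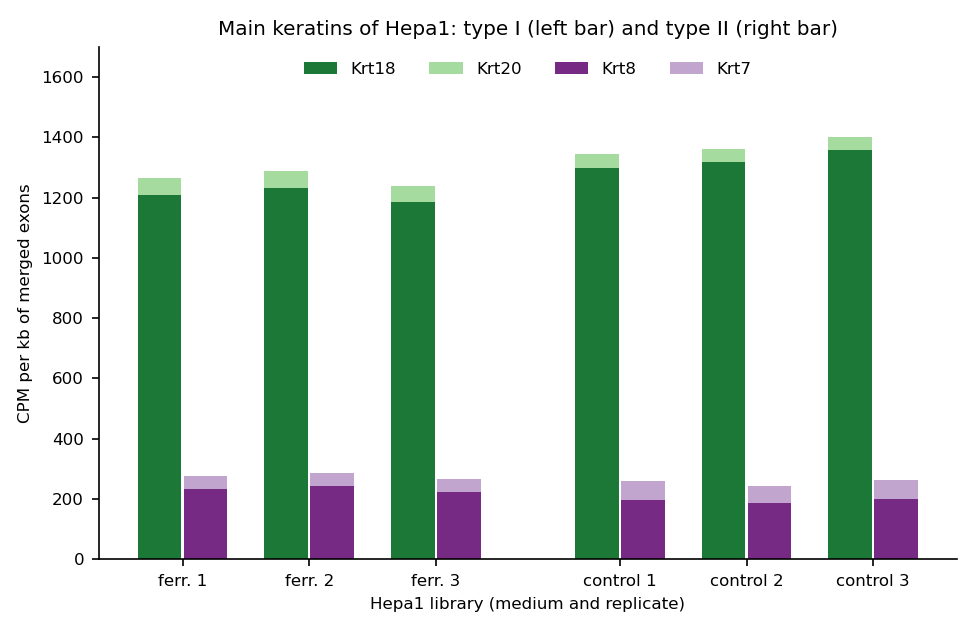
CPM per kb of merged exons for the 4 abundant keratins in each Hepa1 library, with type I (Krt18, Krt20) as the left bar and type II (Krt8, Krt7) as the right bar. The type I bars are the taller ones in all 6 libraries, and Krt18 makes up most of them.

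Both cornified envelope members were lower in Hepa1 in ferroptotic medium. Sprr2h, a small proline-rich envelope protein gene, had 2, 2 and 4 reads in ferroptotic medium, against 33, 49 and 59 reads in control medium. The groups lie far apart, at 0.14 ± 0.0531 CPM in ferroptotic against 2.39 ± 0.68 CPM in control medium (SD, n = 3). The log2 change was -4.11 (SE 0.38), rank 2 from the bottom among 13169 genes. Crct1, a gene of the same complex, had 3, 5 and 2 reads in ferroptotic medium, against 38, 54 and 47 reads in control medium. Its means were 0.17 ± 0.0874 CPM in ferroptotic and 2.35 ± 0.39 CPM in control medium, with a log2 change of -3.78 (SE 0.342). With 8 and 10 reads in the 3 ferroptotic libraries the folds are imprecise. The ratio of pooled reads, ferroptotic over control, was 0.0571 (95% counting interval 0.0242 to 0.116) for Sprr2h and 0.0724 (0.034 to 0.137) for Crct1. Sprr2h has near-identical relatives, so its counts are uncertain.

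Cldn3, a sealing claudin, had 197, 199 and 194 CPM in Hepa1 in ferroptotic medium, against 339, 313 and 361 CPM in control medium. All ferroptotic libraries were lower, with a log2 change of -0.83 (SE 0.0412). Both keratin types thus held members that were higher (Krt4, Krt8 and Krt20) and lower (Krt7 and Krt18) in ferroptotic medium. In Hepa1 ferroptotic replicate 3, 132 MEF genes stood at 0.115% of the MEF level, against 0.0155 and 0.0188% in ferroptotic replicates 1 and 2. At that share MEF RNA would add at most 0.00084 CPM to any member.

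**Figure D3:**
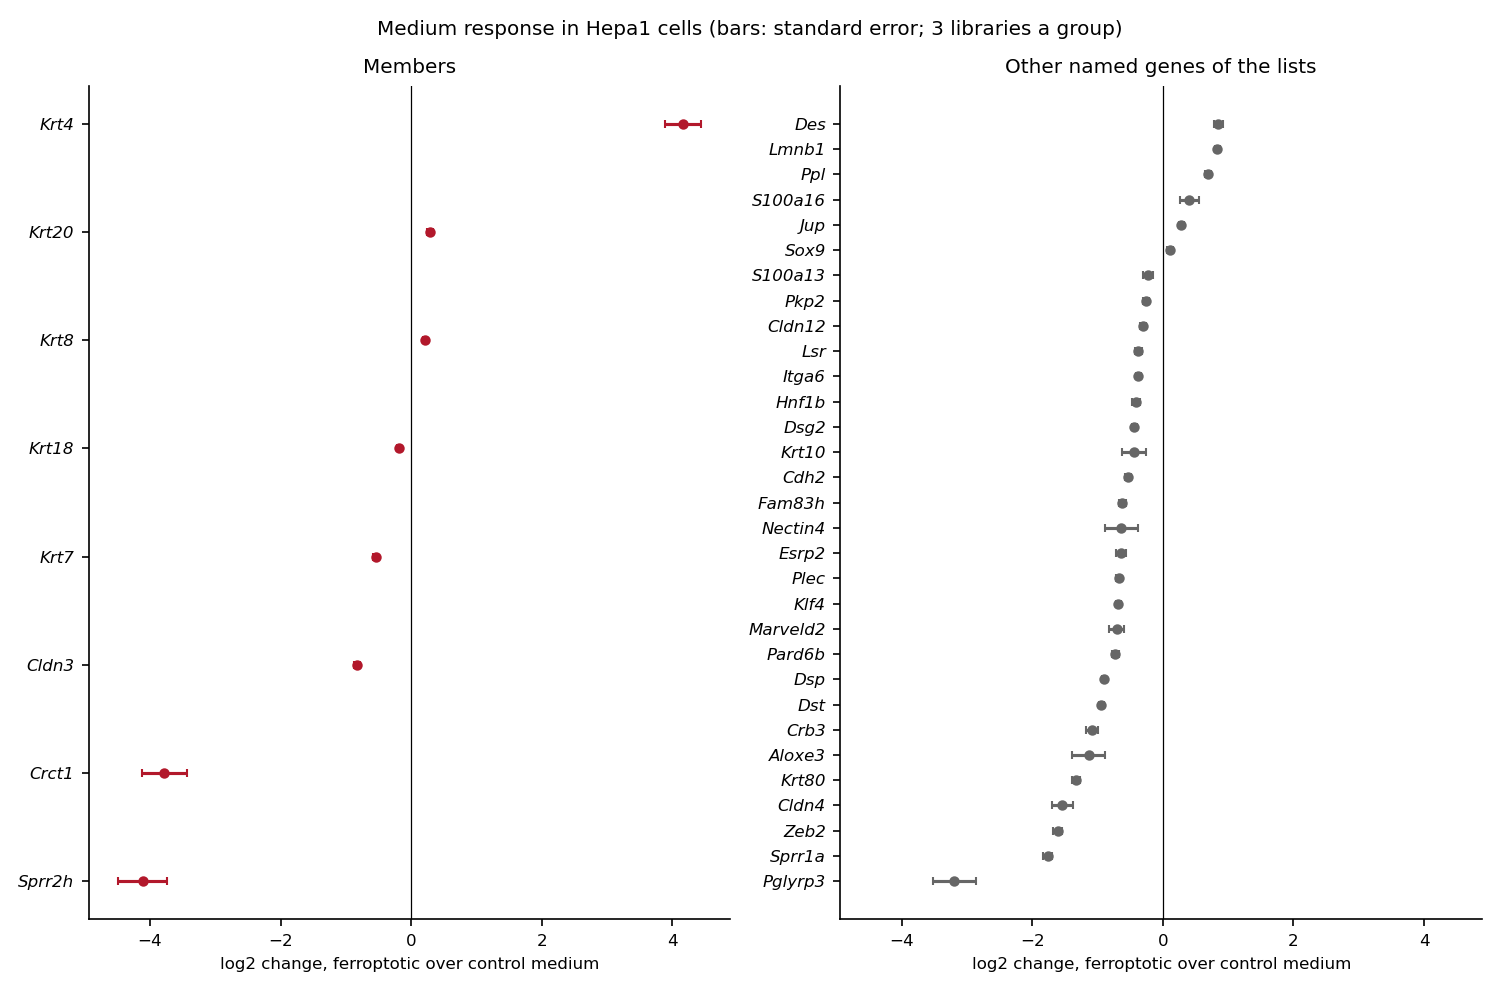
Log2 change of ferroptotic over control medium in Hepa1 with its standard error, for the 8 tested members (left) and for other named genes of the lists (right). Krt4 lies at 4.17 and Sprr2h at -4.11, while the 5 abundant members lie between -0.83 and 0.29.

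Other genes of the same clusters and junctions were read from lists that hold no members. Over all lists, 62 of 229 genes were tested in Hepa1, and 12 rose and 35 fell. That is 75.8% called, beside 58.1% of all genes tested (29.3% higher and 28.8% lower), with a median log2 change of -0.19, against 0.00446 over all genes. Most keratin genes were silent or nearly so: 12 of 22 other type II and 14 of 25 other type I keratins had 0 reads in Hepa1. Untested keratins with few reads went both ways. Picked after their values were seen, Krt23 (26 in ferroptotic, 0 in control medium) and Krt83 (26 and 1) had more reads in ferroptotic medium. Krt5 (5 and 13) and Krt14 (2 and 11) had fewer. Krt80, a keratin of many epithelia, fell by 1.33 on the log2 scale, to 18.9 ± 0.84 CPM in ferroptotic against 45.9 ± 1.37 CPM in control medium (adjusted p = 3.61e-17). Krt10, the keratin of upper epidermal layers, fell by 0.44 (adjusted p = 0.0339). That call was lost in 7 of 12 other settings, among them each control replicate left out in turn (adjusted p = 0.0519, 0.0714 and 0.0708), ferroptotic replicate 1 or 2 left out (adjusted p = 0.0741 and 0.127) and no scaling beyond totals (adjusted p = 0.0573), as well as the DESeq2 Wald test (adjusted p = 0.125). With any control replicate or ferroptotic replicate 1 left out, a second type II keratin reached the test and 1 rose and 1 fell. With no filter on low counts, 1 rose and 1 fell in each of the 2 keratin lists.

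The epidermal differentiation complex, taken as the 59 other protein-coding genes between S100a1 and S100a10 that are not S100 genes, was mostly silent in Hepa1. A total of 37 had 0 reads and 3 were tested. Pglyrp3, a peptidoglycan recognition protein gene, fell by 3.20 on the log2 scale, to 0.27 ± 0.15 CPM in ferroptotic against 2.47 ± 0.67 CPM in control medium (adjusted p = 2.67e-09). Sprr1a, another small proline-rich gene, fell by 1.77, to 17.1 ± 1.15 CPM in ferroptotic against 56.3 ± 4.08 CPM in control medium (adjusted p = 6.9e-19). The third, Gm9774, was not called (log2 change -0.04, adjusted p = 0.582). Without ferroptotic replicate 1, 5 genes were tested and 4 fell. Several untested genes of the complex, picked after their values were seen, also had fewer reads in ferroptotic medium, such as Lce1g (7 in ferroptotic, 37 in control medium), Sprr2e (1 and 20) and Ivl, the involucrin gene (15 and 32). Of 4 tested S100 genes within the window, 1 rose and 2 fell, with S100a16 at 0.41 (adjusted p = 0.0137) and S100a13 at -0.23 (adjusted p = 0.0116). The call of S100a16 was lost without control replicate 1 (adjusted p = 0.0716) and without ferroptotic replicate 2 (adjusted p = 0.122), and with the DESeq2 Wald test (adjusted p = 0.0569).

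Of 12 tested tight and adherens junction genes in Hepa1, 1 rose and 9 fell, beside 29.3% of all genes tested called higher and 28.8% lower, with a median log2 change of -0.47. Among the 9, Nectin4, a nectin adhesion gene, fell by 0.64 (adjusted p = 0.0297). Its call was lost with the DESeq2 Wald test (adjusted p = 0.131), without control replicate 1 or 3 (adjusted p = 0.11 and 0.073) and without ferroptotic replicate 1, 2 or 3 (adjusted p = 0.0864, 0.0664 and 0.0503). Crb3, a cell polarity gene, fell by 1.08 (adjusted p = 2.46e-11), Pard6b, another polarity gene, by 0.73 (adjusted p = 1.88e-13) and Marveld2, the tricellulin gene, by 0.71 (adjusted p = 5.56e-06). The gene of this list that rose was Tjp1, the ZO-1 gene, at 0.33 (adjusted p = 1.05e-09), named after its value was seen. Both tested claudins fell, with Cldn4 at -1.54 (adjusted p = 3.17e-09) and Cldn12 at -0.31 (adjusted p = 7.56e-07).

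Of 9 tested desmosome genes, 3 rose and 5 fell. Dsp, the desmoplakin gene that ties keratin filaments to desmosomes, fell by 0.91, to 284 ± 2.59 CPM in ferroptotic against 515 ± 7.65 CPM in control medium (adjusted p = 1.57e-19). Dsg2, a desmosomal cadherin gene, fell by 0.44 (adjusted p = 6.11e-12), while Jup, the plakoglobin gene, rose by 0.28 (adjusted p = 3.42e-08). Of 7 tested keratin linkers and modifiers, 0 rose and 4 fell, but 2 rose and 3 fell with no scaling beyond totals, and 1 rose and 3 fell without control replicate 3. The linker genes Dst (-0.95, adjusted p = 8.16e-19) and Plec (-0.68, adjusted p = 1.04e-15) were among the 4. Of 8 tested cornified envelope genes outside the complex, 2 rose and 3 fell. Ppl, the periplakin gene, rose by 0.69, to 100.2 ± 4.96 CPM in ferroptotic against 60.1 ± 3.80 CPM in control medium (adjusted p = 6.89e-13). The desmosome and envelope lists share Dsp, Jup, Pkp1, Pkp3 and Perp.

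Epithelial regulators and mesenchymal genes were both present in Hepa1. Of 7 tested epithelial transcription and splicing factors, 1 rose and 3 fell. The gene that rose was Sox9, by 0.11 (adjusted p = 0.0353), and its call was lost with the DESeq2 Wald test (adjusted p = 0.076), with the replicate block (adjusted p = 0.0548), without control replicate 1 (adjusted p = 0.262) and without ferroptotic replicate 1 or 2 (adjusted p = 0.142 and 0.149). In those 5 settings 0 rose and 3 fell. Among those that fell were Klf4 at -0.68 (adjusted p = 8.62e-14) and the splicing factor gene Esrp2 at -0.64 (adjusted p = 1.52e-08). Of 4 tested epithelial surface and protease genes, 0 rose and 2 fell, Itga6 by 0.38 (adjusted p = 2.38e-09) and Lsr by 0.37 (adjusted p = 6.58e-07). Of 8 tested mesenchymal factors and other intermediate filament genes, 5 rose and 3 fell. Zeb2, a repressor of epithelial genes, fell by 1.61 (adjusted p = 3.64e-17) and Des, the desmin gene, rose by 0.85 (adjusted p = 1.84e-11). Cdh1, the E-cadherin gene, had 2 and 1 reads in ferroptotic and control medium, whereas Vim, the vimentin gene, stood at 944 and 807 CPM, both looked at after their values were seen. Keratinocyte markers stayed low, at summed levels of 2.28 to 2.7 CPM in ferroptotic and 3.14 to 3.56 CPM in control libraries, with Krt1, Dsc3 and Col17a1 at 0 reads in both. Of 18 liver markers, 8 had a read in ferroptotic and 11 in control medium, with summed levels of 1733 to 1886 CPM in ferroptotic and 580 to 599 CPM in control libraries. Most of that difference came from Trf (1345 CPM in ferroptotic, 397.7 in control medium) and Alb (311 and 33.6 CPM). Afp and Apoa2 also had more reads in ferroptotic medium. Rbp4 had fewer, at 1645, 1584 and 1692 reads against 1849, 1859 and 1902 in control medium. Fgb and Fgg, with few reads, had fewer too. The sum therefore does not describe the list as a whole. The part of the liver markers in the keratin values was not tested. In such bulk libraries a different share of cells with a gene and a different amount of its RNA per cell cannot be told apart.

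**Figure D4:**
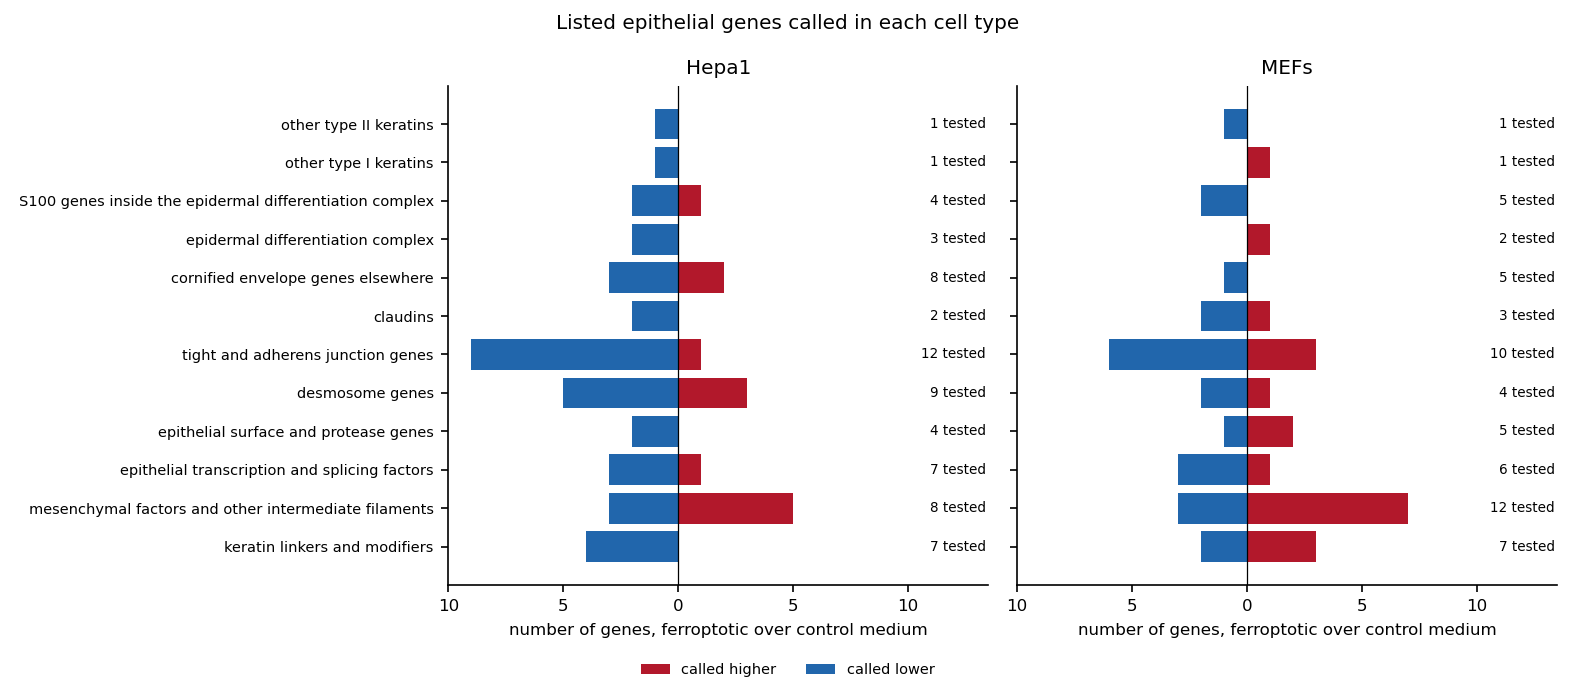
Number of listed genes called higher (red, right) and lower (blue, left) in ferroptotic than in control medium in Hepa1 and MEFs, with the number tested beside each list. In Hepa1 tight and adherens junction genes stand at 9 lower and 1 higher.

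In MEFs the members were at the edge of detection. Only Krt7 passed the filter on low counts, and it was not called, beside a background of 55.0% of 14441 genes called. Krt4 and Sprr2h had 0 reads in all 6 MEF libraries, which allows up to 0.0449 CPM in ferroptotic and 0.0462 CPM in control medium. Epcam had 0 reads in ferroptotic medium and 1 read in each of the 3 control libraries. Krt19 had 0, 0 and 1 reads in ferroptotic medium, against 2, 3 and 1 reads in control medium. For Epcam and Krt19 the CPM of the groups did not overlap, as in 60.7% of the genes tested, which do not include these 2. For Krt19, replicate 3 held 1 read in each medium (0.0427 CPM in ferroptotic, 0.0476 in control), so that separation rests on the library totals.

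Of the other MEF values, several rest on ferroptotic replicate 3. Krt18 had 2, 2 and 47 reads in ferroptotic medium, against 3, 6 and 3 reads in control medium. Krt8 had 0, 4 and 10 reads in ferroptotic medium, against 1, 0 and 1 in control medium. Only replicate 3 of these genes lies clearly above the control libraries. Krt20 had 0, 2 and 9 reads in ferroptotic medium, against 2, 2 and 3 in control medium. Cldn3 had 1, 0 and 9 reads in ferroptotic medium and 0 reads in the 3 control libraries. Without replicate 3, pooled Krt18 stood at 0.092 CPM in ferroptotic against 0.185 CPM in control medium, a ratio of 0.497 (95% counting interval 0.117 to 1.64). For Krt8 the ratio without it was 2.98 (0.428 to 33.0) and for Krt20 0.426 (0.0432 to 2.24), so these intervals include equal levels. In replicate 3 alone, Krt18 stood at 2.01 CPM.

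Krt7 had 2, 7 and 17 reads in MEFs in ferroptotic medium, against 12, 13 and 16 reads in control medium. The groups overlapped only through replicate 3, and the log2 change was -0.76 (SE 0.403). Without ferroptotic replicate 3 it was -1.65 and was called, with a pooled ratio of 0.328 (95% counting interval 0.14 to 0.684). Crct1 had 2, 3 and 7 reads in ferroptotic medium, against 0, 1 and 1 reads in control medium. Its groups did not overlap, as in 60.7% of the genes tested, which do not include Crct1. Without replicate 3 the ratio was 3.73 with an interval of 0.611 to 39.2. With no filter on low counts, 3 of 8 members with a read were called higher in MEFs, namely Krt8, Krt18 and Cldn3. The share of all genes called in that fit is not given here, and the 27.8% called higher in the filtered fit covers other genes. Nothing is therefore read from this count. Cldn3 had 0 reads in the control libraries, so its log2 change of 4.73 in that fit has no usable standard error. In each of these 3 genes ferroptotic replicate 3 held most of the reads.

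MEF ferroptotic replicate 3 was checked for Hepa1 RNA with 9 protein-coding genes that had at least 100 CPM in both Hepa1 groups and under 0.2 CPM in each MEF control library, members left out. These genes held 14, 5 and 50 reads in MEF ferroptotic replicates 1, 2 and 3, or 0.0318, 0.0113 and 0.105% of the Hepa1 level in ferroptotic medium. In replicate 3 all 9 genes had a read. In the MEF control libraries, on which the genes were chosen, the share was 0.00468 to 0.0162%. Dsp, Dsg2 and Dsc2, which are desmosome genes, stood at 0.148% in replicate 3, and the 6 others (Igsf11, Abcc2, Coro2a, Pnma5, Sp5 and H2-Q1) at 0.0868%. Against the Hepa1 level in control medium those shares were 0.098 and 0.132%.

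At a share of 0.105%, replicate 3 would hold 42.7 reads of Krt18, and it held 47 (95% counting interval 34.5 to 62.5). It would hold 11.2 reads of Krt8 and held 10 (4.8 to 18.4), and 4.83 reads of Cldn3 and held 9 (4.12 to 17.1). For Krt20 the share gives 2.63 reads against 9 found (4.12 to 17.1), and for Krt7 7.45 against 17 found (9.9 to 27.2). For Crct1 the share gives 0.00426 reads, or 0.0578 from the Hepa1 level in control medium, against 7 found (2.81 to 14.4). These values leave out reads of the MEFs' own and the counting error of the 50 reads behind the share. MEF control libraries held 12, 13 and 16 reads of Krt7 and 2, 2 and 3 of Krt20. How much the share accounts for was therefore not tested. For Krt18, Krt8 and Cldn3 the reads from the share thus lay inside the counting interval, and for Krt20 and Crct1 below it. For Krt7 they lay below it from the ferroptotic level and inside it from the control level. All values given from the control level keep the share of 0.105%, which against the control level itself was 0.115%. The same calculation fared differently in the other ferroptotic libraries. Summed over the members, each library's own share gave 19.3, 6.89 and 68.9 reads in replicates 1, 2 and 3, against 7, 18 and 100 found. Fewer were thus found in replicate 1 and more in replicates 2 and 3. For Krt18 in replicate 1, the reads from the share lay above the counting interval of the 2 found (0.242 to 7.22).

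Of the liver markers, Alb and Afp gave few or no reads in MEFs, but others gave more. Trf had 252, 205 and 189 reads in MEF ferroptotic and 533, 528 and 490 in MEF control libraries. Rbp4 had 2, 3 and 0 reads in ferroptotic and 36, 38 and 24 in control libraries. All 18 liver markers summed to 8.63 to 12.5 CPM in MEF ferroptotic and 26.9 to 28.9 CPM in MEF control libraries. Alb, the albumin gene, had 311 CPM in Hepa1 in ferroptotic and 33.6 CPM in control medium, and 0 reads in all 6 MEF libraries. The share would give 7.64 Alb reads in replicate 3 from the ferroptotic level and 0.827 from the control level, and a count of 0 has an upper counting limit of 3.69, which lies below the value from the ferroptotic level and above that from the control level. Afp, the alpha-fetoprotein gene, had 1 read there, against 1.64 and 1.44 from the ferroptotic and control levels. H2-Q1, of which Hepa1 had 520 CPM in ferroptotic and 108 CPM in control medium, had 5 reads, against 12.8 and 2.66. It is among the 9 genes that gave the share, so these values are no separate check of it. Whether Hepa1 RNA or other cells gave these reads was not tested. Mesothelial markers, which mark another keratin-bearing cell type of embryos, had summed levels of 0.60 to 0.83 CPM in MEFs in ferroptotic and 1.13 to 1.32 CPM in control medium, with 7 of 8 having a read in each group and 0 reaching a mean of 1 CPM. The keratinocyte markers Krt5, Krt14, Krt1, Dsg3 and Dsc3 had 0 reads in both MEF groups, while the whole list summed to 13.6 to 14.8 CPM in ferroptotic and 19.3 to 20.7 CPM in control libraries, with Trp63 and Krt10 at 1 CPM or more.

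**Figure D5:**
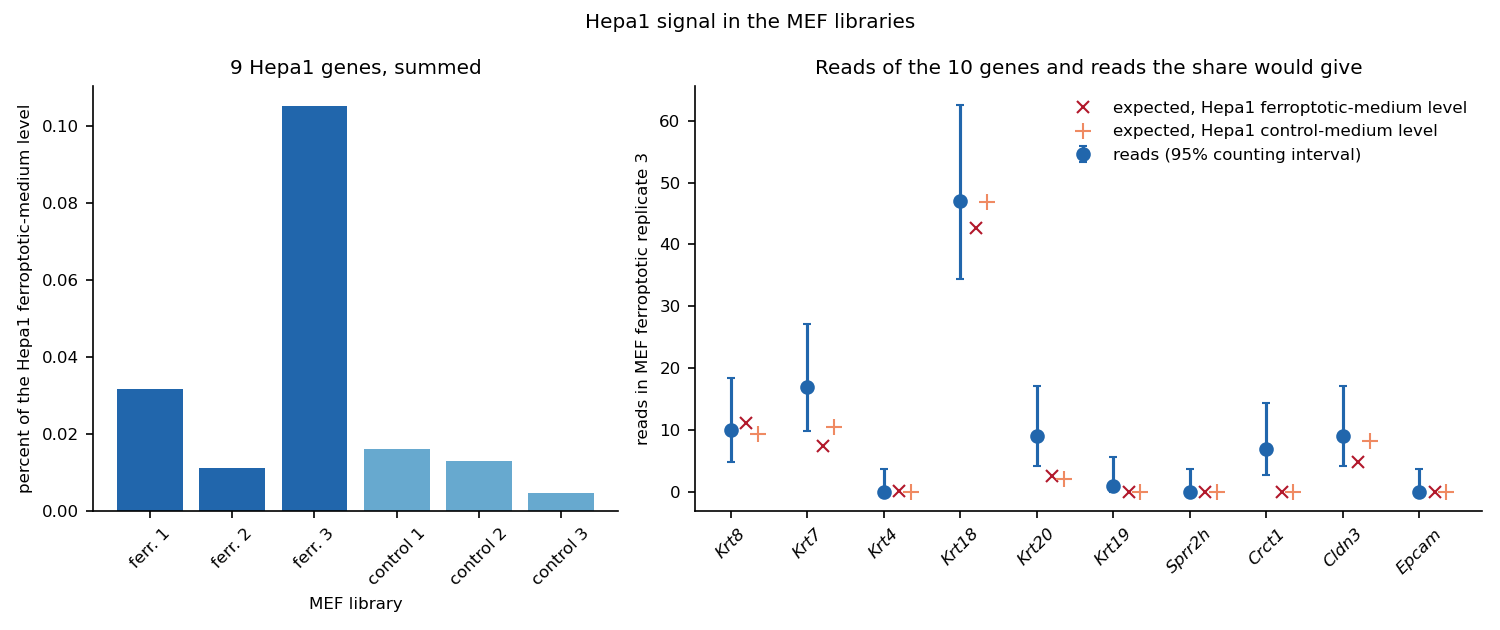
Left, summed level of 9 Hepa1 genes in each MEF library as a percent of their level in Hepa1 in ferroptotic medium, with replicate 3 of the ferroptotic group at 0.105%. Right, reads of each member in that library with 95% counting intervals (points) and the reads the share would give (crosses). Krt18 lies at 47 reads beside 42.7, and Crct1 at 7 beside 0.00426.

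Over all lists, 59 of 229 genes were tested in MEFs, and 20 rose and 22 fell. That is 71.2% called, beside 55.0% of all genes tested (27.8% higher and 27.2% lower), with a median log2 change of -0.00785, against 0.0033 over all genes. Krt80 fell by 0.79 (adjusted p = 0.00191) from few reads, 87 in ferroptotic against 139 in control medium. Its groups overlapped, so it falls outside the rule for named genes and was named after its value was seen. Krt10 rose by 0.66 (adjusted p = 0.00338). Cldn19, a claudin gene, rose by 2.50, to 16.3 ± 1.06 CPM in ferroptotic against 2.75 ± 0.34 CPM in control medium (adjusted p = 9.89e-27). It was the 1 of 3 tested claudins that rose, and 2 fell. Of 10 tested tight and adherens junction genes, 3 rose and 6 fell, led by Pard6b at -2.80 (adjusted p = 6.13e-22) and Nectin2 at -1.32 (adjusted p = 4.15e-31). Of 12 tested mesenchymal factors and other intermediate filament genes, 7 rose and 3 fell, among them Cdh2, the N-cadherin gene, at 1.14 (adjusted p = 2.65e-34) and Nes, the nestin gene, at -1.52 (adjusted p = 1.56e-17). Trp63, the gene of the epidermal regulator p63, fell by 0.74, to 11.6 ± 0.73 CPM in ferroptotic against 18.4 ± 0.62 CPM in control medium (adjusted p = 1.05e-12).

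The remaining MEF lists moved in both directions. Of 6 tested epithelial transcription and splicing factors, 1 rose and 3 fell. Of 5 tested surface and protease genes, 2 rose and 1 fell, with Itga6 at 1.60 (adjusted p = 6.69e-12). Of 7 keratin linkers and modifiers, 3 rose and 2 fell. Of the 3, Krtcap3 rose by 0.55 (adjusted p = 0.00954), a call lost with the DESeq2 Wald test (adjusted p = 0.0642), without control replicate 2 (adjusted p = 0.0582) and without ferroptotic replicate 3 (adjusted p = 0.0701). Of 4 desmosome genes 1 rose and 2 fell, Jup and Pkp2, a plakophilin gene. Pkp2 fell by 1.03 (adjusted p = 0.0022), and without control replicate 1 its log2 change was -0.62 and was not called (adjusted p = 0.1). Of 5 cornified envelope genes outside the complex, 1 fell and 0 rose, which was Jup at -0.18 (adjusted p = 0.00487), a call lost with no scaling beyond totals (adjusted p = 0.0858). In the epidermal differentiation complex 50 of 59 genes had 0 reads, and Sprr3, named after its value was seen, rose by 1.48 (adjusted p = 0.000787) with 55 reads in ferroptotic against 18 in control medium. Of 5 tested S100 genes within the window, 0 rose and 2 fell, S100a6 by 0.33 (adjusted p = 1.88e-14) and S100a11 by 0.15 (adjusted p = 7.09e-05).

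The medium response of several listed genes differed between the cell types. In an edgeR fit over all 12 libraries, 44.2% of 15627 genes were called for the difference, taken as the log2 change in Hepa1 minus that in MEFs. The difference was -2.31 for Zeb2 (adjusted p = 2.69e-26), which fell in Hepa1 and rose by 0.70 in MEFs (adjusted p = 5.49e-18). Klf4, with a difference of -1.36, also fell in Hepa1 and rose in MEFs, by 0.68 (adjusted p = 1.04e-11).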

How the data were processed

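The submitters' processing notes name HTSeq 0.9.1, STAR 2.7.10a, Trimmomatic 0.39 and FastQC 0.11.9, with the mouse build GRCm38 (mm10). Neither the annotation release nor the strand setting is given in the sources used here. The authors deposited raw read counts per Ensembl gene, as a series table and 1 file per sample, and 0 values differed between them. The 5 HTSeq summary lines were set apart (1.996 to 2.576% of reads on no gene, 3.658 to 4.03% ambiguous). GENCODE M21 named 55141 identifiers. Groups come from the sample titles, and no label says that replicates came from separate cultures. The p-values therefore reflect the spread among these libraries alone, which may be technical.

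Each cell type was fitted on its 6 libraries with edgeR 4.0.16 in R 4.3.3 (filterByExpr, TMM, quasi-likelihood F-test), and the difference of responses over 12 libraries. A call is a Benjamini-Hochberg adjusted p under 0.05 over all genes tested, and every adjusted p printed is from this test. CPM are plain, and intervals and floors (3 counts) cover counting error only. The members and lists were chosen with earlier results of these data known. Named are all members and, per list and cell type, up to 4 called genes that changed most, provided their groups did not overlap and they averaged 1 CPM or more, and not all are printed. Alternatives were DESeq2 1.42.0 and its size factors, no scaling, other filters, replicates left out and a replicate block. On simulated counts 92% of 2-fold and 72% of 1.25-fold changes were recovered in Hepa1 (13001 genes tested), and 94% and 70% in MEFs (14194 genes). The simulation gave every gene the same spread beyond counting error (3.08% in Hepa1, 2.45% in MEFs). It changed 100 genes at each fold, far fewer than were called in the data, so these rates need not hold there. No number paired the libraries: deviations of same-numbered libraries correlated at -0.0143 to 0.0366.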

Additional observations from a re-analysis of the deposited data

Results flagged for a closer look

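Crct1 was lower in every ferroptotic library than in every control library in Hepa1 (log2 change -3.78) and higher in every one in MEFs (12 against 2 reads), and this difference between cell types was not tested. The MEF part rests on few reads, and without ferroptotic replicate 3 the interval of the ratio was 0.611 to 39.2. From equally few reads, Krt19 (1 against 6) and Epcam (0 against 3) were lower in CPM in every ferroptotic MEF library. For Krt19, replicate 3 held 1 read in each medium, so there only the library totals separate the groups.

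In the edgeR interaction over 12 libraries, 44.2% of 15627 genes were called for a difference of medium responses, and 23 of 28 listed genes that were named and tested in both cell types. Those 28 genes were named for large called changes in the same libraries, so nothing is read from their count. Differences are the log2 change in Hepa1 minus that in MEFs. They were negative for Zeb2 (-2.31), Itga6 (-1.98), Cdh2 (-1.67), Klf4 (-1.36), Dst (-1.30), Krt10 (-1.10), Fam83h (-0.63), Plec (-0.63), Krt80 (-0.54), Tchp (-0.31) and Pkp4 (-0.17). They were positive for Pard6b (2.07), Esrp2 (0.95), F11r (0.87), Pkp2 (0.76), Lmnb1 (0.72), Nectin2 (0.71), Spint2 (0.60), Jup (0.47), S100a16 (0.43), S100a6 (0.25), Krtcap2 (0.22) and S100a11 (0.20). The adjusted p was largest for Krt80 (adjusted p = 0.0469).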

How the results depend on the processing

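In Hepa1 the 8 tested members kept direction and call in the 12 alternatives, with log2 changes of 3.93 to 4.56 for Krt4, -4.48 to -3.90 for Sprr2h and -4.22 to -3.50 for Crct1. The number of called members in MEFs was 0 and became 3 with no filter on low counts, and 0 to 1 with replicates left out, where Krt7 was called without ferroptotic replicate 3. The replicate block left the counts at 8 members in Hepa1 and 0 in MEFs. The cause of these changes was not tested.

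The share of the other cell type's level depended on the genes used. With Alb and Afp it was 0.0122, 0.0 and 0.0113% in MEF ferroptotic replicates 1, 2 and 3. The median over genes gave 0.0178, 0.0 and 0.122%. At least 20 CPM, a setting chosen after seeing the data, gave 0.0897, 0.0751 and 0.168%. At 500 CPM no gene was left in the MEF check. In Hepa1 ferroptotic replicates 1, 2 and 3, Thy1 and Lum gave 0.0, 0.0168 and 0.26%, and 500 CPM gave 0.0083, 0.0171 and 0.101%. The median gave 0.00666, 0.0104 and 0.117% in the same replicates, and 20 CPM gave 0.0285, 0.0296 and 0.127%. Replicate 3 was thus the highest in each of these settings. Depth limits members below about 0.16 CPM, the level of 3 reads in a library.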
